A study of Mus musculus with 14 samples.

Results

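The transcripts of 31 genes of pyruvate dehydrogenase and the tricarboxylic acid (TCA) cycle were followed through CD4 T cells of the mouse spleen. The genes were taken by symbol from a named list of 31, and all 31 were found among the 26683 symbols of the count table. They comprise 8 genes of the pyruvate dehydrogenase complex and its phosphatases, 7 of the citrate and isocitrate steps, 5 of the oxoglutarate and succinyl-CoA steps, 4 of succinate dehydrogenase, 3 of the fumarate and malate steps, and 4 of anaplerosis and citrate export. All 31 passed the filter on low counts, which 13427 genes passed, and the lowest count of any of them in any library was 70, for Idh1.

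Cells came from female mice 8 months old of either C57BL/6J (B6), the control strain, or TC, a congenic strain with NZM2410 intervals Sle1, Sle2 and Sle3, which confer lupus, on the B6 background. The intervals are carried in the germline of every cell and lie on chromosomes 1, 4 and 7. From each of 4 B6 and 3 TC mice, follicular helper T cells (Tfh, which help B cells in germinal centres; sorted as CD4+ CD44+ CD162lo/- PD-1+) and naive cells (Tn; CD4+ CD44-) were sorted, and total RNA was sequenced. This gave 4 libraries of each cell type in B6 and 3 of each in TC, of 15162309 to 20191558 counts. The labels name no treatment in any group. Library values below are in the order of mice 1, 2, 3 and 4 for B6 and mice 1, 2 and 4 for TC.

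Pyruvate dehydrogenase turns pyruvate from glycolysis into acetyl-CoA in the mitochondrial matrix and is switched off by kinases (Pdk) and on by phosphatases (Pdp). The TCA cycle then oxidises acetyl-CoA stepwise, with succinate dehydrogenase also serving as complex II of the respiratory chain, while citrate can leave the mitochondrion to give acetyl-CoA for lipid synthesis and histone acetylation. In CD4 T cells, activation raises both glycolysis and mitochondrial oxidation, and lupus-prone TC mice are known for elevated CD4 T cell metabolism.

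Promoters of the 31 genes were searched for 5 motifs on both strands in RefSeq windows of 250 bases before to 50 after the start site (GRCm38.p6, the same build as mm10), and 27 of 31 members matched a promoter. The letters CCAAT were found in 17 of 27 members, where 41.1% of all genes with a promoter held them, and the E-box CACGTG in 5, against 8.09%. The NRF1 core GCATGCGC was found in Ogdh and Sdhb (3.05% of all genes), the estrogen-related receptor motif TCAAGGTCA in Sdhd (0.466%) and the ETS motif CCGGAAGT in Dlst (4.31%). No motif contains another. Shown here, because their genes had called changes described below (Idh2 and Slc25a1 between cell types, Mdh1 and Sdhb between strains) and held a motif, are 4 stretches with motif letters in capitals (CCAAT or its reverse complement ATTGG, GCATGCGC or CACGTG), 5′ to 3′ on the strand of the gene, 30 bases around the motif or, for Slc25a1, the 250 before the start. The Idh2, Mdh1 and Sdhb stretches overlap the first exon (5′ UTR) of a GENCODE transcript, and that of Slc25a1 overlaps no annotated feature. A match describes letters only.
Idh2, minus strand of chr7:80115377-80115406: cccgggtgagacCCAATggggcggcaggtt
Mdh1, minus strand of chr11:21572058-21572087: cctcctctcctgCCAATtgctgagcgccat
Sdhb, plus strand of chr4:140961206-140961235: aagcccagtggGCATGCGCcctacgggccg
Slc25a1, minus strand of chr16:17928220-17928469: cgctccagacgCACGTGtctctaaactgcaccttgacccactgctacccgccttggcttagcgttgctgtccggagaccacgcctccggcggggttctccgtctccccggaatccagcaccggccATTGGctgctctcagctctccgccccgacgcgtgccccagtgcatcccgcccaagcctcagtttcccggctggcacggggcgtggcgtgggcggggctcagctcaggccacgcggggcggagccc

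Levels are given as normalized counts (normalized CPM, counts per 1000000 of the library after scaling by the trimmed mean of M values, TMM), and a gene is called where the Benjamini-Hochberg adjusted p of edgeR's quasi-likelihood test, over all 13427 genes tested, is below 0.05. The Tfh marker list (Bcl6, Cxcr5, Icos, Il21, Pdcd1, Tox2) summed to 1950 to 2610 normalized CPM in Tfh against 97.2 to 127 in Tn, and the naive list (Ccr7, Igfbp4, Lef1) to 190 to 254 in Tfh against 2100 to 3410 in Tn. Foxp3, the regulatory T cell factor, was present in Tfh at a mean of 311 normalized CPM in B6 and 324 in TC, against 37.7 and 26.0 in Tn. The T cell markers Cd3e and Cd4 summed to 2330 to 2850 in Tfh and 1670 to 1860 in Tn, and 3 erythroid markers to at most 1.45 in any library. Ribosomal protein genes took 3.60 to 4.76% of counts in B6 Tfh, 8.12 to 9.55% in B6 Tn, 2.91 to 2.99% in TC Tfh and 6.22 to 6.78% in TC Tn. In sorted bulk RNA, fewer cells of a type and less RNA per cell cannot be told apart.

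Per kilobase of transcript, the scale on which genes can be set against each other, the 31 genes spanned a wide range. In B6 Tfh, Mdh2 (mitochondrial malate dehydrogenase) stood highest of the 31 at 137 normalized CPM per kb, followed by Sdha (the flavoprotein of succinate dehydrogenase) at 112. Pcx (pyruvate carboxylase) at 1.32 and Pdp2 (a pyruvate dehydrogenase phosphatase) at 2.15 stood lowest. Among the isocitrate dehydrogenases, Idh3a, Idh3b and Idh3g, which encode the subunits of the NAD-linked enzyme, stood at 22.7, 87 and 86.5, mitochondrial NADP-linked Idh2 at 17.2 and cytosolic Idh1 at 2.85 normalized CPM per kb. In B6 Tn, Idh2 stood at 49.4 on that scale, above Idh3a at 25.7 and below Idh3b at 82.7 and Idh3g at 88.4.

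Summed over the 31 genes, the pathway took 2890, 3030, 2920 and 2920 normalized CPM in Tfh and 3410, 3400, 3430 and 3300 in Tn of B6 mice. TC mice had 2570, 2500 and 2510 in Tfh and 2880, 2790 and 2810 in Tn. Both TC groups lay below the B6 group of the same cell type with no overlap, and both Tfh groups below the Tn group of the same strain with no overlap.

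**Figure D1:**
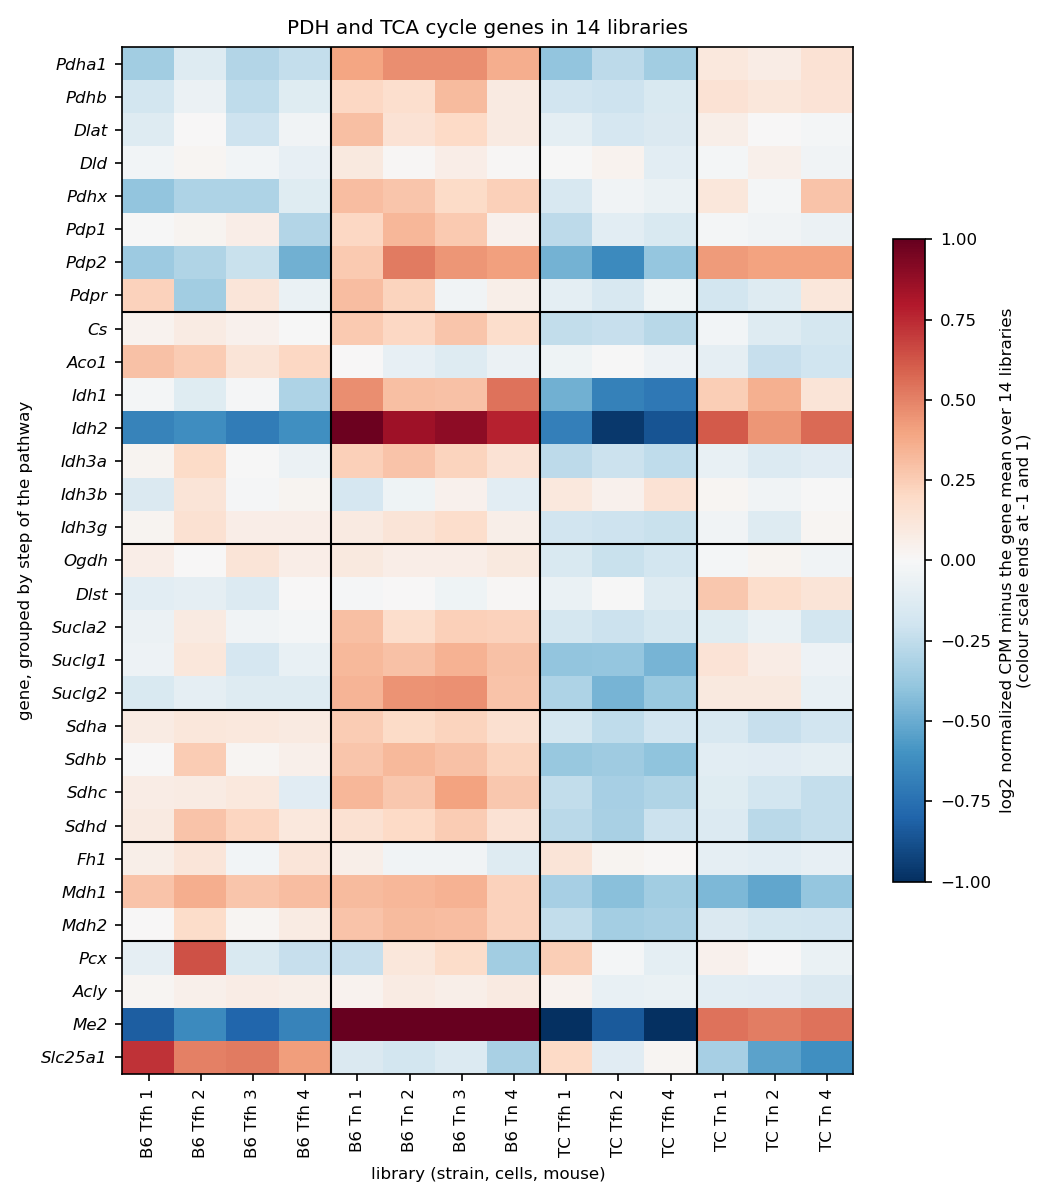
Colours show log2 normalized CPM of each of the 31 genes (rows, grouped by step) in each of 14 libraries (columns) minus that gene's mean over the libraries, with the scale ending at -1 and 1. Idh2 and Me2 part Tn (red) from Tfh (blue) in both strains, Slc25a1 goes the other way, and Mdh1 and the succinate dehydrogenase genes are bluer in all 6 TC libraries than in the 8 B6 libraries.

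Comparing Tfh with Tn asks how the pathway differs between helper and naive cells of one mouse strain. In B6, 18 of the 31 genes were lower in Tfh and 2 higher, where 33.4% of all genes tested were lower and 37.1% higher. In TC, 15 were lower and 3 higher, where 32.4% of all genes were lower and 33.8% higher. The median log2 fold change of the 31 genes was -0.19 in B6 and -0.14 in TC, beside 0.02 and -0.01 over all genes tested. There were 12 genes, of the 18 in B6 and the 15 in TC, that were lower in both strains (Cs, Idh1, Idh2, Mdh2, Me2, Pdha1, Pdhb, Pdhx, Pdp2, Sdhb, Suclg1 and Suclg2), and Aco1 and Slc25a1 were higher in both. The share of all genes tested that was called the same way in both strains is not given here. Tfh lay below Tn in each of the 4 B6 mice for 19 genes and above it for 3, and in each of the 3 TC mice for 20 and 6. Over all genes tested, 36.5% were lower and 39.7% higher in every B6 mouse, and 41.8% and 40.8% in every TC mouse. Called folds ran from 1.08 (Sdha) to 3.51 (Me2) among the genes that were lower in B6. With a correction for transcript length and GC content, 28 were lower and 1 higher in B6 and 28 and 0 in TC where the correction was not centred (median of all genes -0.33 and -0.34). Where it was centred, these counts were 16 and 5 in B6 and 14 and 4 in TC. Not centred, Aco1 turned to -0.24 in TC, still called, and to -0.10 in B6, where the call was lost (adjusted p = 0.0792). Fh1 in TC turned to a called -0.26, and the TC call of Slc25a1 was lost (0.14, adjusted p = 0.212). Centred, calls were lost in B6 for Sdhb (adjusted p = 0.992) and Pdp1 (adjusted p = 0.0783). In TC they were then lost for Sdhb (adjusted p = 0.558), Aco1 (adjusted p = 0.0527), Fh1 (adjusted p = 0.0835), Idh3g (0.07, adjusted p = 0.156) and Mdh2 (0.01, adjusted p = 0.777).

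Marker lists of other cell types also differed between Tfh and Tn. All 4 regulatory T markers were higher in Tfh in both strains (summed level 1280 to 1570 normalized CPM in B6 Tfh against 82.8 to 124 in B6 Tn, 1810 to 2340 in TC Tfh against 80.4 to 116 in TC Tn). Of 5 B cell markers 3 were higher in Tfh in each strain (sum 106 to 116 against 1.40 to 2.32 in B6, 71.2 to 99.2 against 1.02 to 2.01 in TC), mostly through Cd22. Cd79a was not called in either strain, and Ms4a1 was too low to test. All 4 plasma cell markers were higher in B6 Tfh and 3 of 4 in TC Tfh (sum 117 to 155 in Tfh, 53.5 to 68.6 in Tn), as were all 3 cycling markers in both strains (68.1 to 95.1 against 8.46 to 15.4). Among NK markers Klrb1c was higher in Tfh, with Ncr1 at 0 in all 14 libraries, and CD8 markers summed to 5.94 to 7.42 in Tfh against 9.52 to 20.2 in Tn, with Cd8a at 0 in both Tfh groups. Of 3 myeloid markers tested, 2 were higher and 1 lower in B6 Tfh, and 0 were higher and 1 lower in TC Tfh. The lower one in B6 was Itgam, at a mean of 0.508 normalized CPM in Tfh against 7.86 in Tn. The part of other cell types in the pathway's differences was not tested.

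**Figure D2:**
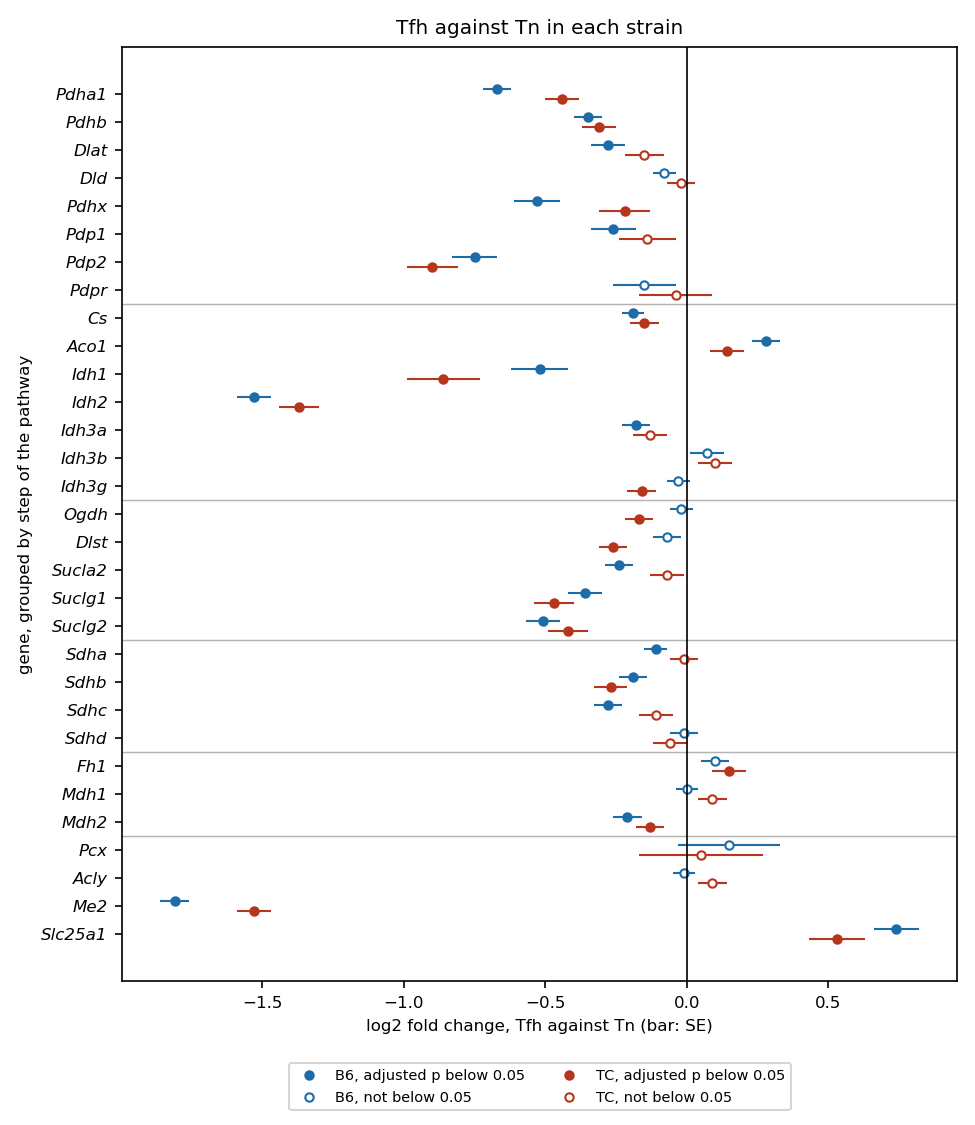
Points are log2 fold changes of Tfh against Tn for the 31 genes in B6 (blue) and TC (red), bars are 1 SE, and filled points have an adjusted p below 0.05. Me2 and Idh2 lie farthest to the left in both strains, at -1.81 and -1.53 in B6, and Slc25a1 farthest to the right at 0.74 in B6.

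Comparing TC with B6 asks how the pathway differs between the strains within one cell type. In Tfh, 18 of 31 genes were lower in TC and 0 higher, where 25.9% of all genes tested were lower and 24.7% higher. In Tn, 19 were lower and 1, Dlst, was higher, where 26.1% of all genes were lower and 25.8% higher. Beside the 0 higher in Tfh, no gene of the 31 was higher at an unadjusted p below 0.05 other than Pdhx, whose adjusted p was 0.0847. The median log2 fold change of the 31 genes was -0.25 in both cell types, beside -0.02 in Tfh and -0.01 in Tn over all genes tested. In both cell types 15 genes, of the 18 in Tfh and the 19 in Tn, were lower in TC, and 7 of these (Cs, Idh2, Mdh2, Me2, Sdhb, Suclg1 and Suclg2) were also lower in Tfh than in Tn of both strains. The comparisons share libraries, so these overlaps are not independent of each other. The shares of all genes tested that met the same joint conditions are not given here, so the overlaps have no background beside them.

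Genes called between strains were also counted by step. Over all genes tested, 25.9% were lower in TC in Tfh and 26.1% in Tn. Of the 8 pyruvate dehydrogenase genes 0 were called between strains in Tfh and 3 were lower in TC in Tn, whereas 4 of 4 succinate dehydrogenase genes were lower in TC in both cell types. Of the 7 citrate and isocitrate genes 6 were lower in TC Tfh and 4 in TC Tn, of the 5 oxoglutarate and succinyl-CoA genes 4 and 3, and of the 3 fumarate and malate genes 2 and 2. The difference between steps was not tested.

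Marker lists also differed between strains. Of the 4 regulatory T markers 2 were higher in TC Tfh and 0 lower, with sums of 1810 to 2340 normalized CPM against 1280 to 1570 in B6, and Foxp3 at means of 324 and 311. Of 4 B cell markers tested 1 was higher and 1 lower, with sums of 71.2 to 99.2 in TC Tfh against 106 to 116 in B6 Tfh. In Tfh 2 of 4 plasma markers and 2 of 3 myeloid markers tested were lower in TC (myeloid sum 3.71 to 6.80 against 8.57 to 18.6). In Tn, 3 of 3 naive markers were lower in TC (sum 2100 to 2270 against 2940 to 3410). Among Tfh markers in Tfh, Cxcr5 (-0.58) and Pdcd1 (-0.49) were lower and Bcl6 (0.38) and Il21 (0.39) higher in TC, as log2 fold changes. In Tn, Cxcr5 (-0.88), Foxp3 (-0.53), Il2ra (-0.79), Cd8b1 (-0.70), Itgam (-0.67) and Lyz2 (called, with no fold given at its low counts) were lower and Ctla4 (1.48) and Cd68 (2.00) higher. Of the other lists, 1 of 2 T cell, 1 of 3 cycling and 1 of 1 erythroid markers tested were lower in TC in each cell type, as were the NK marker Klrb1c in Tfh and 1 of 4 plasma markers in Tn. Ribosomal protein genes also took a smaller share of TC libraries, as given above. The part of these in the pathway's differences was not tested.

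**Figure D3:**
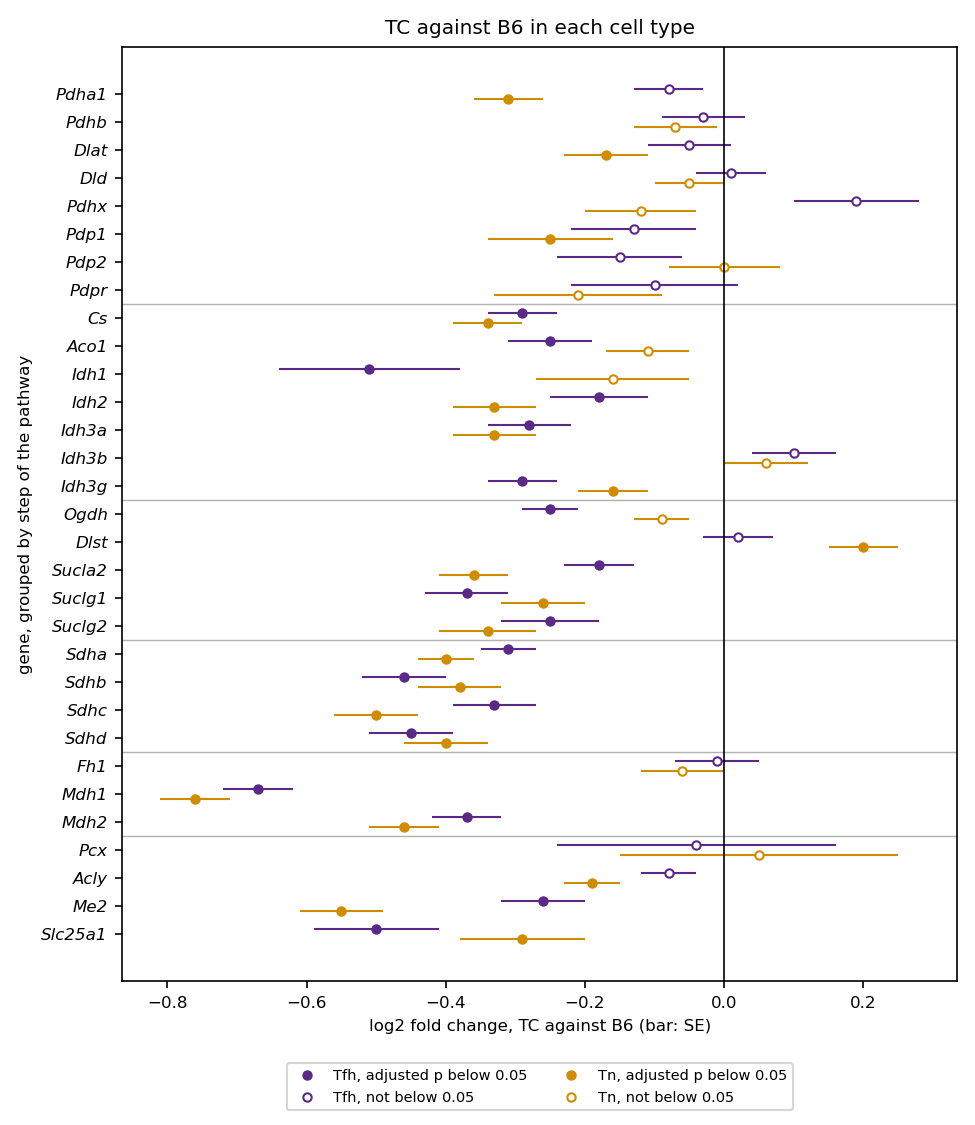
Points are log2 fold changes of TC against B6 for the 31 genes in Tfh (purple) and Tn (orange), bars are 1 SE, and filled points have an adjusted p below 0.05. Nearly all filled points lie left of 0, Mdh1 farthest at -0.67 in Tfh and -0.76 in Tn, and Dlst in Tn is the filled point to the right.

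Of the pyruvate dehydrogenase genes, Pdha1, the X-linked catalytic E1 alpha subunit that the kinases phosphorylate (chromosome X, 160122209 to 160138413, minus strand, mm10), parted by cell type. Its levels were 131, 152, 136 and 141 normalized CPM in Tfh and 219, 230, 230 and 214 in Tn of B6 mice. TC mice had 127, 139 and 131 in Tfh and 179, 175 and 184 in Tn. Every Tfh library lay below every Tn library, and TC Tn lay between B6 Tn and the Tfh groups. Pdha1 was 1.59-fold lower in Tfh in B6 (log2 fold change -0.67, SE 0.05, adjusted p = 1.27e-09) and 1.36-fold lower in TC (log2 fold change -0.44, SE 0.06, adjusted p = 2.9e-06). Between strains it was 1.24-fold lower in TC Tn (log2 fold change -0.31, SE 0.05, adjusted p = 0.000105), with an interval of -0.20 to 0.03 on the log2 scale in Tfh. An opposite-strand gene, Map3k15, shares 603 exon bases with Pdha1, at means of 2.88 to 5.37 normalized CPM over the 4 groups. The strand setting of the authors' counting is not given in the sources used here, so reads from shared bases of opposite-strand genes cannot be told apart.

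Pdhb, the E1 beta subunit, stood at group means of 62.3 ± 3.66 (SD, n = 4), 79.4 ± 5.23 (n = 4), 61 ± 1.2 (n = 3) and 75.8 ± 0.941 (n = 3) normalized CPM in Tfh and Tn of B6 and then of TC. Tfh was lower by a log2 fold change of -0.35 (adjusted p = 1.1e-05) in B6 and -0.31 (adjusted p = 0.000214) in TC, and not called between strains. Pdhx, the E3-binding protein that anchors dihydrolipoamide dehydrogenase, was at 11.5, 12.2, 12.2 and 13.9 normalized CPM in Tfh and 18.7, 18.3, 17.2 and 17.8 in Tn of B6 mice. TC mice had 13.5, 14.7 and 14.4 in Tfh and 16.3, 14.9 and 18.4 in Tn. Pdhx was lower in Tfh at -0.53 (adjusted p = 1.13e-05) in B6 and -0.22 (adjusted p = 0.0451) in TC, where the groups did not overlap in either strain. The TC call for Pdhx was lost without any 1 of 12 libraries (all but B6 Tn 1 and TC Tn 2), with adjusted p of 0.0508 to 0.232. It was also lost with DESeq2, with RLE size factors and with only the groups compared.

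Dlat, the E2 acetyltransferase core, stood at 33.4, 36.7, 31.7 and 35.7 normalized CPM in Tfh and 45, 40.5, 42.1 and 39 in Tn of B6 mice. TC mice had 34.3, 32.5 and 33.1 in Tfh and 38.1, 36.7 and 36.2 in Tn. Called differences were small: -0.28 (adjusted p = 0.00037) for Tfh against Tn in B6 and -0.17 (adjusted p = 0.0308) for TC against B6 in Tn, the second lost without B6 Tn 1, B6 Tn 3, TC Tn 2 or TC Tn 4 (adjusted p 0.0604 to 0.0981). Dld, the E3 dehydrogenase shared with the oxoglutarate complex, was called in no comparison, at 65.4 ± 2.0, 69 ± 2.01, 65.7 ± 3.36 and 66.6 ± 2.13 normalized CPM (SD, n = 4, 4, 3 and 3). Its 95% intervals were -0.17 to 0.02 for Tfh against Tn in B6 and -0.10 to 0.11 for TC against B6 in Tfh on the log2 scale.

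Among the phosphatases that reactivate the complex, Pdp2 was at 12.1, 12.6, 13.3 and 11.1 normalized CPM in Tfh and 18.6, 22.2, 21.1 and 20.6 in Tn of B6 mice. TC mice had 11.2, 9.98 and 11.9 in Tfh and 20.9, 20.5 and 20.5 in Tn. Tfh lay below Tn in all 7 mice, 1.68-fold in B6 (log2 fold change -0.75, SE 0.08, adjusted p = 1.25e-07) and 1.87-fold in TC (log2 fold change -0.90, SE 0.09, adjusted p = 1.47e-07). Pdp1, the calcium-stimulated phosphatase, was at 17.8, 18.2, 18.7 and 14.6 normalized CPM in Tfh and 20.6, 22.5, 21.4 and 18.4 in Tn of B6 mice. TC mice had 14.9, 16.6 and 16.1 in Tfh and 17.6, 17.4 and 17.2 in Tn. Pdp1 was lower in Tfh in B6 at -0.26 (adjusted p = 0.00939) and lower in TC in Tn at -0.25 (adjusted p = 0.0255), the second call lost without B6 Tn 2, B6 Tn 3 or any 1 TC Tn library (adjusted p 0.0526 to 0.0781). Pdpr, a regulatory subunit of the phosphatase, was called nowhere, at group means of 51.8 to 61.5 normalized CPM, and shares 169 exon bases with the opposite-strand 9430091E24Rik (means 4.10 to 4.62).

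Of the opposing kinases, which are not among the 31 genes, Pdk1 was the highest in Tn. Its levels were 63.8, 84.4, 69 and 81 normalized CPM in Tfh and 530, 521, 501 and 495 in Tn of B6 mice. TC mice had 55.9, 53.6 and 52.4 in Tfh and 268, 245 and 315 in Tn. Pdk1 was 6.86-fold lower in B6 Tfh than Tn (log2 fold change -2.78, SE 0.09, adjusted p = 4.36e-14) and 5.11-fold lower in TC (log2 fold change -2.35, SE 0.10, adjusted p = 3.99e-12). Between strains Pdk1 was lower in TC at -0.47 (adjusted p = 0.000775) in Tfh and -0.89 (adjusted p = 7.72e-07) in Tn. Pdk3 went the other way between cell types, at 0.80 (adjusted p = 2.3e-08) in B6 and 0.92 (adjusted p = 8.99e-08) in TC. Between strains it was lower in TC at -0.46 (adjusted p = 0.000134) in Tfh and -0.58 (adjusted p = 3.29e-05) in Tn. Pdk2 was higher in Tfh at 0.53 (adjusted p = 0.00069) and 0.62 (adjusted p = 0.00112), and Pdk4 had a mean of 0 in all groups.

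Cs, citrate synthase, which joins acetyl-CoA to oxaloacetate, was at 228, 235, 229 and 221 normalized CPM in Tfh and 266, 256, 269 and 251 in Tn of B6 mice. TC mice had 187, 189 and 183 in Tfh and 218, 203 and 197 in Tn. All TC libraries lay below all B6 libraries of either cell type. Cs was lower in TC by 1.22-fold in Tfh (log2 fold change -0.29, SE 0.05, adjusted p = 7.93e-05) and 1.26-fold in Tn (log2 fold change -0.34, SE 0.05, adjusted p = 1.43e-05). Its Tfh to Tn difference was -0.19 (adjusted p = 0.000663) in B6 and -0.15 (adjusted p = 0.0158) in TC, the TC call being lost without B6 Tfh 1, 3 or 4, any 1 TC Tfh library or TC Tn 1 (adjusted p 0.0519 to 0.122). Aco1, cytosolic aconitase and the iron-sensing IRP1 protein, was at 48.5, 47.3, 43.4 and 45.8 normalized CPM in Tfh and 39.8, 37.5, 36.3 and 38.2 in Tn of B6 mice. TC mice had 38.6, 39.5 and 38.4 in Tfh and 37.2, 33.8 and 34.5 in Tn. It was one of the few genes of the 31 that were higher in Tfh, at 0.28 (adjusted p = 8.15e-05) in B6 and 0.14 (adjusted p = 0.0483) in TC, and it was lower in TC Tfh at -0.25 (adjusted p = 0.00115). The TC Tfh to Tn call of Aco1 was lost without B6 Tn 2, 3 or 4, TC Tfh 2, TC Tn 2 or TC Tn 4 (adjusted p 0.0527 to 0.162).

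Idh2, which makes mitochondrial NADPH (chromosome 7, 80094846 to 80115392, minus strand), was at 29.6, 30.6, 28.9 and 30.8 normalized CPM in Tfh and 92.8, 84.6, 87.3 and 80.3 in Tn of B6 mice. TC mice had 29.2, 24.1 and 25.8 in Tfh and 71.9, 63.7 and 69.6 in Tn. Tn stood far above Tfh in every mouse, 2.88-fold in B6 (log2 fold change -1.53, SE 0.06, adjusted p = 3.72e-13) and 2.59-fold in TC (log2 fold change -1.37, SE 0.07, adjusted p = 2.63e-11). Idh2 was lower in TC Tn at -0.33 (adjusted p = 0.00033). In Tfh the B6 and TC libraries overlapped. The call there, -0.18 (adjusted p = 0.0433), was lost without any 1 of 9 libraries (all 4 B6 Tfh, B6 Tn 2, B6 Tn 3, TC Tfh 2, TC Tfh 4 and TC Tn 4, adjusted p 0.0504 to 0.256) with mouse as a block (adjusted p = 0.0579), and with the length and GC correction (adjusted p = 0.141 not centred and 0.167 centred). Idh1, the cytosolic NADP enzyme, was at 6.99, 6.49, 7.0 and 5.72 normalized CPM in Tfh and 9.75, 8.73, 8.66 and 10.3 in Tn of B6 mice. TC mice had 5.08, 4.42 and 4.3 in Tfh and 8.4, 9.03 and 7.74 in Tn. Idh1 was lower in Tfh in both strains, at -0.52 (adjusted p = 0.000203) in B6 and -0.86 (adjusted p = 1.58e-05) in TC, and lower in TC Tfh by 1.42-fold (log2 fold change -0.51, SE 0.13, adjusted p = 0.00291).

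Idh3a, the NAD-linked enzyme's catalytic subunit, was at 53.8, 60.4, 52.7 and 50.8 normalized CPM in Tfh and 62.3, 64.4, 61.7 and 58.5 in Tn of B6 mice. TC mice had 44.2, 45.5 and 44.4 in Tfh and 50.3, 48 and 48.9 in Tn. Idh3a was lower in TC in both cell types at -0.28 (adjusted p = 0.000686) in Tfh and -0.33 (adjusted p = 0.000134) in Tn, with a smaller Tfh to Tn difference of -0.18 (adjusted p = 0.00539) in B6. In TC that difference was -0.13 (adjusted p = 0.0704), or adjusted p = 0.0314 with mouse as a block. Idh3g, a regulatory subunit, was at 111, 121, 114 and 114 normalized CPM in Tfh and 116, 119, 123 and 113 in Tn of B6 mice. TC mice had 95.2, 94.1 and 93.4 in Tfh and 106, 99.3 and 110 in Tn. TC lay below B6 in both cell types, at -0.29 (adjusted p = 0.00012) in Tfh and -0.16 (adjusted p = 0.00934) in Tn, the Tn call being lost without TC Tn 2 (adjusted p = 0.0683) and with the length and GC correction (adjusted p = 0.693 not centred and 0.972 centred). Between cell types Idh3g was lower in TC Tfh at -0.16 (adjusted p = 0.012), lost without any 1 TC Tfh library or TC Tn 4 (adjusted p 0.0607 to 0.0817). Idh3b, the other regulatory subunit, was called in no comparison, with group means of 134 to 150 normalized CPM. Its intervals for TC against B6 were -0.03 to 0.22 in Tfh and -0.06 to 0.19 in Tn, both on the log2 scale and neither reaching the fitted change of Idh3a. Idh3b shares 5 exon bases with the opposite-strand Nop56.

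**Figure D4:**
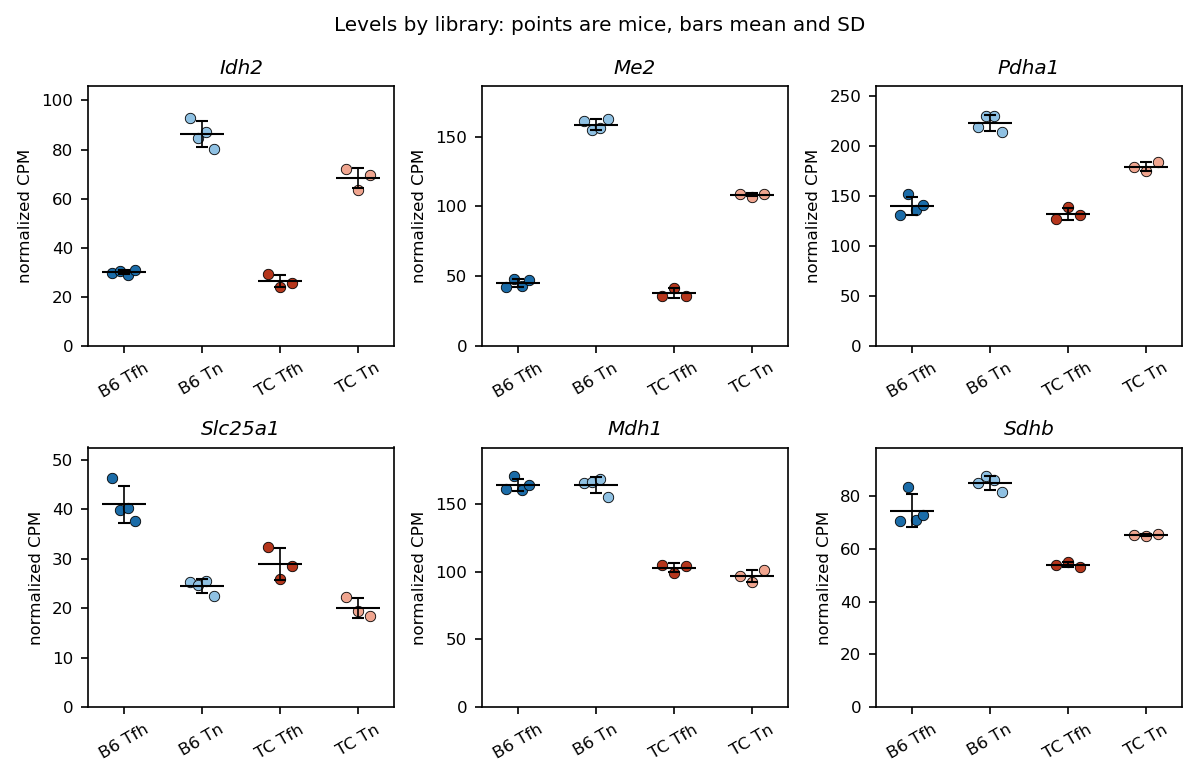
Each panel shows 1 gene, with normalized CPM on an axis from 0, 1 point per mouse in each of 4 groups, and bars for the mean and SD. Idh2 and Me2 separate by cell type, Mdh1 and Sdhb by strain, and in Slc25a1 the highest values are those of B6 Tfh (37.6 to 46.3).

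At the oxoglutarate step, Ogdh, the E1 subunit of the oxoglutarate dehydrogenase complex, was at 303, 290, 317 and 303 normalized CPM in Tfh and 310, 304, 303 and 310 in Tn of B6 mice. TC mice had 261, 249 and 255 in Tfh and 286, 295 and 283 in Tn. TC Tfh stood below each of the other groups. Ogdh was lower in TC Tfh than in B6 Tfh at -0.25 (adjusted p = 0.000194) and lower than in TC Tn at -0.17 (adjusted p = 0.00341), the second lost without TC Tfh 2 (adjusted p = 0.051). Dlst, the E2 succinyltransferase of the same complex, was at 135, 137, 132 and 146 normalized CPM in Tfh and 144, 146, 141 and 147 in Tn of B6 mice. TC mice had 139, 145 and 133 in Tfh and 175, 164 and 159 in Tn. It was the single gene of the 31 that was higher in TC, by 1.15-fold in Tn (log2 fold change 0.20, SE 0.05, adjusted p = 0.00225), and it was lower in TC Tfh than TC Tn at -0.26 (adjusted p = 0.000326).

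Succinyl-CoA synthetase pairs the alpha subunit Suclg1 with either the ATP-forming Sucla2 or the GTP-forming Suclg2 beta subunit. Suclg1 was at 62.7, 70.2, 57.8 and 61.5 normalized CPM in Tfh and 81.2, 79.5, 82.5 and 79.6 in Tn of B6 mice. TC mice had 49.4, 49.6 and 47.1 in Tfh and 71.2, 68.4 and 62.7 in Tn. Suclg1 was lower in Tfh at -0.36 (adjusted p = 1.89e-05) in B6 and -0.47 (adjusted p = 7.08e-06) in TC. Suclg1 was also lower in TC, at -0.37 (adjusted p = 0.000117) in Tfh and -0.26 (adjusted p = 0.0017) in Tn, the Tn call being lost with the length and GC correction (adjusted p = 0.0519 not centred and 0.0823 centred). Suclg2 was at 22.3, 23.2, 22.6 and 22.6 normalized CPM in Tfh and 31.4, 33.8, 33.9 and 30.2 in Tn of B6 mice. TC mice had 20.0, 17.9 and 19.1 in Tfh and 26.5, 26.5 and 23.5 in Tn. Its Tfh and Tn libraries did not overlap in either strain, at -0.51 (adjusted p = 7.63e-07) in B6 and -0.42 (adjusted p = 8.9e-05) in TC. In TC Suclg2 was lower at -0.25 (adjusted p = 0.00662) in Tfh and -0.34 (adjusted p = 0.000339) in Tn. Sucla2 was at 39.6, 43.9, 40.3 and 40.8 normalized CPM in Tfh and 50.8, 46.7, 48.8 and 48.5 in Tn of B6 mice. TC mice had 36.6, 35.5 and 36.5 in Tfh and 37.9, 39.5 and 36.4 in Tn. Sucla2 was lower in Tfh in B6 at -0.24 (adjusted p = 0.000237) and not called in TC at -0.07 (adjusted p = 0.326). In TC Sucla2 was lower at -0.18 (adjusted p = 0.00916) in Tfh and -0.36 (adjusted p = 2.87e-05) in Tn. Without TC Tfh 2 the Tfh strain calls of Suclg2 (adjusted p = 0.0526) and Sucla2 (adjusted p = 0.0515) were lost.

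The 4 subunits of succinate dehydrogenase, which oxidises succinate to fumarate and passes electrons to ubiquinone, were lower in TC in both cell types. Sdha, the flavoprotein, was at 323, 329, 327 and 324 normalized CPM in Tfh and 364, 348, 355 and 340 in Tn of B6 mice. TC mice had 269, 255 and 266 in Tfh and 272, 259 and 266 in Tn. It was 1.24-fold lower in TC Tfh (log2 fold change -0.31, SE 0.04, adjusted p = 2.66e-05) and 1.32-fold lower in TC Tn (log2 fold change -0.40, SE 0.04, adjusted p = 1.12e-06). Sdhb, the iron-sulphur subunit (chromosome 4, 140961203 to 140979193, plus strand), was at 70.3, 83.5, 70.8 and 72.7 normalized CPM in Tfh and 84.7, 87.6, 86 and 81.5 in Tn of B6 mice. TC mice had 54, 54.8 and 53.1 in Tfh and 65.1, 64.9 and 65.4 in Tn. It was 1.38-fold lower in TC Tfh (log2 fold change -0.46, SE 0.06, adjusted p = 6.88e-06) and 1.3-fold lower in TC Tn (log2 fold change -0.38, SE 0.06, adjusted p = 2.54e-05). In both genes the 6 TC libraries lay below all 8 B6 libraries.

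Sdhc and Sdhd encode the membrane anchors. Sdhc was at 57.5, 57.8, 58.9 and 50.7 normalized CPM in Tfh and 68.9, 66, 72.3 and 65.9 in Tn of B6 mice. TC mice had 46.1, 43.5 and 44.5 in Tfh and 50.3, 48.3 and 46.4 in Tn. Sdhc was lower in TC at -0.33 (adjusted p = 0.000211) in Tfh and -0.50 (adjusted p = 2.78e-06) in Tn. Sdhd was at 63.3, 72.1, 69 and 63.9 normalized CPM in Tfh and 66.1, 68.2, 70.8 and 65.7 in Tn of B6 mice. TC mice had 49.2, 47.3 and 51 in Tfh and 53.9, 49.2 and 50.3 in Tn. Sdhd was lower in TC at -0.45 (adjusted p = 9.63e-06) in Tfh and -0.40 (adjusted p = 1.78e-05) in Tn, with B6 and TC libraries apart in both. Between cell types Sdhd was not called, at -0.01 (adjusted p = 0.835) in B6 and -0.06 (adjusted p = 0.432) in TC. Sdhc was lower in B6 Tfh at -0.28 (adjusted p = 0.000136) and Sdhb lower in Tfh at -0.19 (adjusted p = 0.00276) in B6 and -0.27 (adjusted p = 0.00081) in TC. Sdha was lower in B6 Tfh at -0.11 (adjusted p = 0.0206), a call lost without B6 Tfh 1, 3 or 4 or B6 Tn 1 (adjusted p 0.0507 to 0.0631). Of the assembly factors, Sdhaf1 was lower in TC at -0.39 in Tfh and -0.61 in Tn, and Sdhaf2 at -0.25 and -0.29, all log2 fold changes that were called. Between cell types both were higher in Tfh, Sdhaf1 at 0.62 in B6 and 0.84 in TC and Sdhaf2 at 0.25 and 0.29, all called. Sdhaf4 was lower in Tfh at -0.30 in B6 and -0.46 in TC, both called. Sdhaf3 was at -0.27 in B6, not called, and -0.49 in TC, called.

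Fh1, fumarate hydratase, did not differ by a called amount between strains, at 47.8 ± 2.24, 44.5 ± 2.36, 47.4 ± 2.11 and 42.8 ± 0.307 normalized CPM (SD, n = 4, 4, 3 and 3). It was higher in TC Tfh than TC Tn at 0.15 (adjusted p = 0.0388), lost without TC Tfh 1 or any 1 TC Tn library (adjusted p 0.0591 to 0.0919). Its 95% interval for TC against B6 was -0.13 to 0.10 in Tfh and -0.18 to 0.06 in Tn, on the log2 scale.

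Mdh1, cytosolic malate dehydrogenase of the malate-aspartate shuttle (chromosome 11, 21556787 to 21572367, minus strand), had the largest strain difference of the 31 genes in each cell type. Its levels were 161, 170, 160 and 164 normalized CPM in Tfh and 165, 166, 168 and 155 in Tn of B6 mice. TC mice had 105, 98.9 and 104 in Tfh and 96.8, 92 and 101 in Tn. The 8 B6 libraries spanned 155 to 170 and the 6 TC libraries 92 to 105, with no overlap. Mdh1 was 1.59-fold lower in TC Tfh (log2 fold change -0.67, SE 0.05, adjusted p = 1.83e-08) and 1.69-fold lower in TC Tn (log2 fold change -0.76, SE 0.05, adjusted p = 3.02e-09), and was not called between cell types (95% interval -0.09 to 0.09 in B6 and -0.02 to 0.20 in TC). The opposite-strand Wdpcp shares 52 exon bases with Mdh1 and stood at means of 0.119 to 1.13 normalized CPM. Mdh2, the mitochondrial enzyme, was at 190, 215, 192 and 201 normalized CPM in Tfh and 231, 236, 235 and 222 in Tn of B6 mice. TC mice had 160, 150 and 151 in Tfh and 171, 167 and 166 in Tn. Mdh2 was lower in TC at -0.37 (adjusted p = 1.37e-05) in Tfh and -0.46 (adjusted p = 1.19e-06) in Tn. Between cell types Mdh2 was lower in Tfh at -0.21 (adjusted p = 0.000446) in B6 and -0.13 (adjusted p = 0.0399) in TC. The TC Tfh to Tn call of Mdh2 was lost without B6 Tfh 1, 3 or 4 or any 1 of the 6 TC libraries (adjusted p 0.0564 to 0.228). It was also lost with RLE size factors and with only the groups compared.

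Shuttle partners outside the 31 genes were also called. Slc25a12 and Slc25a13, the aspartate-glutamate carriers, went in opposite directions between cell types: Slc25a12 was lower in Tfh at -0.54 in B6 and -0.40 in TC, and Slc25a13 higher at 2.12 and 2.53. Both were lower in TC, Slc25a12 at -0.34 in Tfh and -0.49 in Tn and Slc25a13 at -0.50 and -0.90. Got2, the mitochondrial transaminase, was lower in TC (-0.30 and -0.33), and Got1, the cytosolic one, higher (0.32 and 0.28), all of these being called log2 fold changes. Between cell types Got1 was lower in Tfh at -0.29 in B6 and -0.25 in TC, and Got2 higher at 0.22 and 0.25, all called. Slc25a11, another carrier of the shuttle, was higher in Tfh at 0.34 in B6 and 0.35 in TC, both called. Its means in B6 and TC were 126 and 88.4 normalized CPM in Tfh and 99.0 and 69.5 in Tn.

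Me2, mitochondrial malic enzyme, which turns malate into pyruvate, had the largest difference between cell types among the 31 genes. Its levels were 42.3, 48.2, 43.2 and 47.1 normalized CPM in Tfh and 161, 155, 156 and 163 in Tn of B6 mice. TC mice had 35.9, 41.8 and 35.5 in Tfh and 109, 107 and 109 in Tn. Me2 was 3.51-fold lower in Tfh in B6 (log2 fold change -1.81, SE 0.05, adjusted p = 7.04e-15) and 2.88-fold lower in TC (log2 fold change -1.53, SE 0.06, adjusted p = 9.89e-13). It was also lower in TC, at -0.26 (adjusted p = 0.00202) in Tfh and -0.55 (adjusted p = 7.19e-07) in Tn, with no overlap in either. Pcx, pyruvate carboxylase, which replenishes oxaloacetate, was scarce at group means of 4.89 to 5.38 normalized CPM and called nowhere, with wide intervals (-0.24 to 0.53 for Tfh against Tn in B6). In that comparison the SE of Pcx was 0.18, and B6 Tfh mouse 2 at 7.89 normalized CPM lay above the other B6 Tfh libraries at 4.32 to 4.76. Idh1, with a lowest count of 70 beside 71 for Pcx, had an SE of 0.1 there. The missing calls do not show that Pcx was unchanged, and what set the width of its intervals was not tested.

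Slc25a1, the citrate carrier of the inner membrane (chromosome 16, 17925223 to 17928219, minus strand), rose in Tfh. Its levels were 46.3, 39.8, 40.2 and 37.6 normalized CPM in Tfh and 25.4, 24.7, 25.5 and 22.5 in Tn of B6 mice. TC mice had 32.3, 26 and 28.5 in Tfh and 22.3, 19.4 and 18.4 in Tn. Slc25a1 was 1.67-fold higher in Tfh in B6 (log2 fold change 0.74, SE 0.08, adjusted p = 2.45e-07) and 1.44-fold higher in TC (log2 fold change 0.53, SE 0.10, adjusted p = 0.000145). B6 and TC Tfh did not overlap, and TC was 1.42-fold lower (log2 fold change -0.50, SE 0.09, adjusted p = 0.000167). In Tn it was lower in TC at -0.29 (adjusted p = 0.0153), a call lost without TC Tn 2 or TC Tn 4 (adjusted p 0.0554 to 0.0826). Acly, ATP citrate lyase, which splits exported citrate, was at 321, 328, 332 and 329 normalized CPM in Tfh and 324, 334, 329 and 336 in Tn of B6 mice. TC mice had 324, 300 and 302 in Tfh and 293, 292 and 286 in Tn. Acly was lower in TC Tn at -0.19 (adjusted p = 0.00156) and not called in the other comparisons. The acetyl-CoA synthetases Acss1 and Acss2, outside the 31, were lower in Tfh, Acss1 at -1.30 in B6 and -1.18 in TC and Acss2 at -2.69 and -2.36.

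Whether the step from Tn to Tfh differed between strains was tested by the interaction of strain and cell type. None of the 31 genes was called by edgeR, where 2.10% of all genes tested were (116 with a higher and 166 with a lower Tfh to Tn ratio in TC, or 105 and 236 when ribosomal, receptor and mitochondrial genes were left out of the scaling). At an unadjusted p below 0.05 there were 6 of 31, beside 1903 of all 13427 genes tested. DESeq2 called 2, Me2 (0.29, adjusted p = 0.0226) and Pdha1 (0.24, adjusted p = 0.0444), both with a smaller fall from Tn to Tfh in TC. These 2 were also called by edgeR without B6 Tfh 2 (Me2 0.32, adjusted p = 0.0491, and Pdha1 0.28, adjusted p = 0.0442). With all libraries edgeR gave Me2 0.28 (adjusted p = 0.0948) and Pdha1 0.23 (adjusted p = 0.145). Pck2, mitochondrial PEP carboxykinase and not among the 31, was the 1 called gene of 23 other pathway genes tested, at -0.50 (adjusted p = 0.0168), being higher in Tfh at 1.83 in B6 and 1.33 in TC.

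Ratios of pairs of genes within a library do not depend on the scaling between libraries, and 6 such ratios of counts were compared in 4 ways by exact two-sided permutation tests over libraries, 24 tests in all. None passed the Benjamini-Hochberg adjustment, the smallest adjusted p being 0.114, since the smallest p that groups of 4 and 4, 4 and 3, and 3 and 3 can give is 0.0286, 0.0571 and 0.1. Idh2 to Idh3a sets the NADP-linked enzyme against the catalytic subunit alone of the NAD-linked one. It was 0.55, 0.506, 0.547 and 0.606 in Tfh and 1.49, 1.31, 1.41 and 1.37 in Tn of B6 mice. TC mice had 0.662, 0.529 and 0.58 in Tfh and 1.43, 1.33 and 1.43 in Tn. Tn lay above Tfh in both strains with no overlap (log2 difference -1.34, exact p = 0.0286, in B6 and -1.24, exact p = 0.1, in TC), while the strains overlapped within each cell type.

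Mdh1 to Mdh2, cytosolic against mitochondrial, was 0.846, 0.791, 0.832 and 0.814 in Tfh and 0.715, 0.706, 0.714 and 0.696 in Tn of B6 mice. TC mice had 0.656, 0.658 and 0.691 in Tfh and 0.565, 0.55 and 0.608 in Tn. Each TC group lay below the B6 group of its cell type with no overlap (log2 difference -0.30, exact p = 0.0571, in Tfh and in Tn). The ratio of phosphatase Pdp1 to kinase Pdk1 was 0.279, 0.216, 0.271 and 0.181 in Tfh and 0.0389, 0.0433, 0.0427 and 0.0373 in Tn of B6 mice. TC mice had 0.266, 0.309 and 0.307 in Tfh and 0.0658, 0.071 and 0.0547 in Tn. Tfh lay above Tn with no overlap in either strain (log2 difference 2.53, exact p = 0.0286, in B6 and 2.21, exact p = 0.1, in TC). This ratio leaves out Pdp2, which was lower in Tfh, and Pdk2 and Pdk3, which were higher, as given above. Between strains, TC lay above B6 with no overlap in Tn (log2 difference 0.65, exact p = 0.0571). In Tfh the strains overlapped (0.33, exact p = 0.171). Acly to Cs had group means of 1.44 and 1.27 in Tfh and Tn of B6 and 1.66 and 1.41 in those of TC, with no overlap in any of the 4 comparisons, though the lowest TC Tn and the highest B6 Tn value were both 1.34 as rounded. Idh1 to Idh2 was higher in Tfh with no overlap (means 0.219 against 0.109 in B6 and 0.176 against 0.123 in TC). Between strains it was lower in TC Tfh with no overlap (log2 difference -0.32, exact p = 0.0571), and the strains overlapped in Tn (0.18, exact p = 0.286). Sucla2 to Suclg2, ATP-forming against GTP-forming, was likewise higher in Tfh with no overlap (1.81 against 1.51 in B6 and 1.90 against 1.49 in TC).

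**Figure D5:**
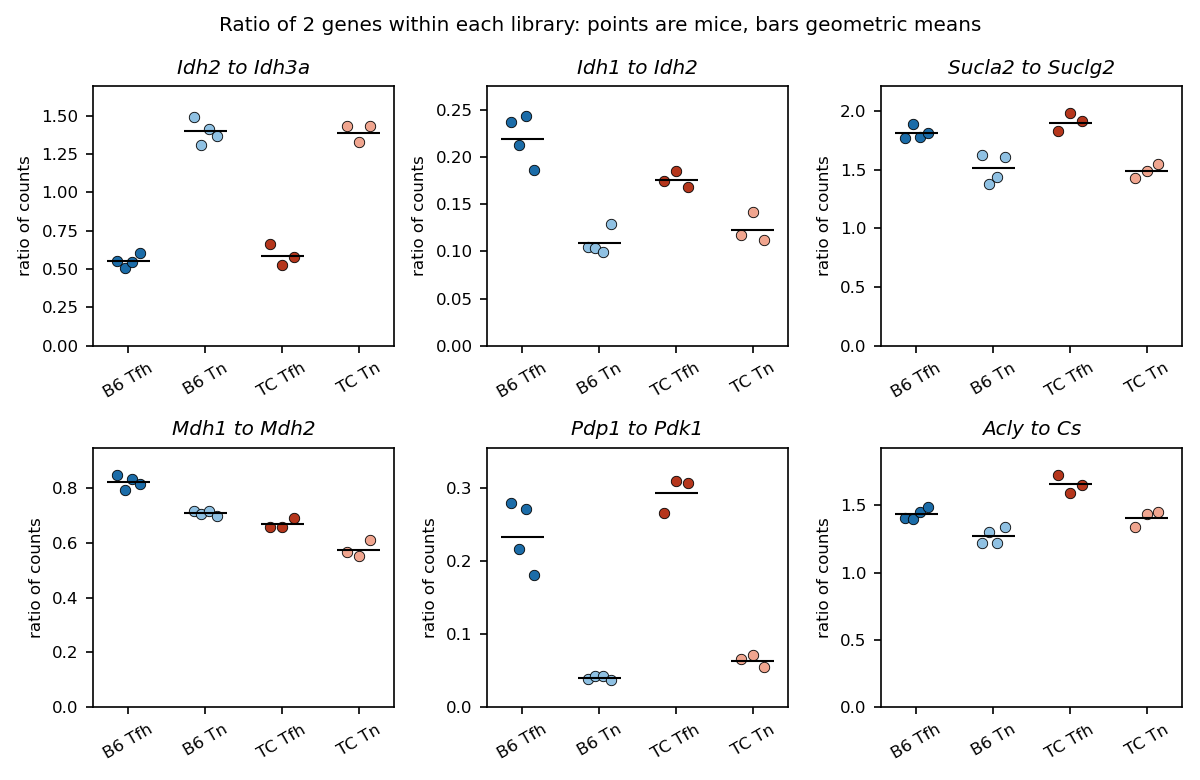
Each panel plots the ratio of counts of 2 genes in each library on an axis from 0, with 1 point per mouse and bars at the geometric means, for 4 groups. Every ratio shown parts by cell type within each strain. Mdh1 to Mdh2 and Acly to Cs also part by strain in both cell types, Pdp1 to Pdk1 in Tn and Idh1 to Idh2 in Tfh.

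Pathway genes outside the 31 came from a list of 29, of which 23 could be tested. In Tfh against Tn 9 were higher and 8 lower in B6 and 9 and 10 in TC, and in TC against B6 2 were higher and 12 lower in Tfh and 4 and 12 in Tn. As shares, 39.1% were higher and 34.8% lower in B6, beside 37.1% and 33.4% of all genes tested. In TC the shares were 39.1% and 43.5%, beside 33.8% and 32.4%. Between strains, 8.7% were higher and 52.2% lower in Tfh, beside 24.7% and 25.9%. In Tn these were 17.4% and 52.2%, beside 25.8% and 26.1%. D2hgdh, which clears D-2-hydroxyglutarate, was among the higher in TC, at 0.53 (adjusted p = 9.91e-06) in Tfh and 0.66 (adjusted p = 5.44e-07) in Tn. Mpc2, a subunit of the mitochondrial pyruvate carrier, was lower in TC at -0.30 (adjusted p = 0.00277) and -0.40 (adjusted p = 0.000235), while Mpc1 was not called. Of 15 regulators, in TC against B6 5 were higher and 2 lower in Tfh and 5 and 3 in Tn. Beside the same shares of all genes, these were 33.3% and 13.3% in Tfh and 33.3% and 20.0% in Tn. Ppargc1b, a coactivator of mitochondrial genes, was higher in TC at 0.81 (adjusted p = 2.23e-05) in Tfh and 0.96 (adjusted p = 2.55e-06) in Tn. Tfam, the mitochondrial DNA transcription factor, was lower at -0.31 (adjusted p = 8.47e-05) and -0.31 (adjusted p = 6.79e-05). Between cell types, 5 regulators were higher in Tfh and 4 lower in B6, and 6 and 4 in TC. As shares these were 33.3% and 26.7% in B6, beside 37.1% and 33.4% of all genes tested. In TC they were 40.0% and 26.7%, beside 33.8% and 32.4%. Hif1a, the hypoxia factor that drives glycolytic genes, was higher in Tfh at 2.54 (adjusted p = 6.99e-13) in B6 and 2.97 (adjusted p = 1.37e-12) in TC. Myc, a driver of growth and metabolism in activated T cells, was lower in Tfh at -1.88 (adjusted p = 1.45e-10) and -2.13 (adjusted p = 2.69e-10), and higher in TC Tn at 0.37 (adjusted p = 0.00578). Esrra and Nrf1, which encode factors that bind promoters of respiratory genes, were not called between strains in either cell type.

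Since the Sle intervals lie on chromosomes 1, 4 and 7, the genes were split by chromosome. On chromosomes 1, 4 and 7 lie 7 of the 31 (Aco1, Fh1, Idh1, Idh2, Pdp1, Sdhb and Sdhc), of which 6 were lower in TC in at least 1 cell type. Of the 24 on other chromosomes 16 were. Over all genes tested with a position, 32.7% of 2534 on chromosomes 1, 4 and 7 and 32.9% of 10220 on other chromosomes were lower in TC in at least 1 cell type. Which of the 7 lie inside an interval was not determined here, and reads carrying sequence of the other strain were not realigned.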

How the data were processed

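RNA sequencing covered 14 samples of sorted CD4 T cells from spleen, made with a TruSeq Stranded kit, per the labels' protocols. The authors deposited 1 table of raw read counts per gene symbol. STAR 2.7, DESeq2 and mm10 are named in the submitters' processing notes, while the counter, its strand setting and the annotation stand in none of the sources used here. Columns were matched to samples by title. For Tn samples 1 label field says Tfh, so titles and sort gates were followed. No sequencing batch is named in the labels.

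Here, genes were filtered by filterByExpr (count minimum 10), scaled by TMM and fitted with edgeR 4.0.16 (R 4.3.3), robust quasi-likelihood, over the 4 groups and 13427 of 26683 symbols, with Benjamini-Hochberg adjustment and a threshold of 0.05. SE is the fold change over the root of F, and 95% intervals use the t quantile of the fit. Ratios of genes used counts with a pseudocount of 0.5. The script was tested on simulated data of 13427 genes, with 100 genes changed 1.5-fold and 100 changed 2-fold in each comparison. Of the 1.5-fold changes, 57 to 73% were called in the right direction between 2 groups and 51% for the interaction. Of the 2-fold changes, 76 to 86% and 72% were. The 31 genes, the 29 further pathway genes, the 15 regulators and the marker lists were chosen with earlier results of these data known. The promoter stretches printed were chosen after values were seen. By rule, all 31 genes are accounted for, with every library for those called between strains or among the 8 largest called between cell types. Other genes are named where called with large folds, and some further ones (Pdk4, Esrra, Nrf1, Mpc1, the carriers and assembly factors) after their values were seen. A few genes not analysed here enter none of the lists.

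Tfh and Tn with the same number came from the same mouse, per the labels' protocols, and their deviations from the group means correlated at 0.0395 to 0.299 over 7 mice. No library pair was a duplicate (chi-square per degree of freedom 5.31 to 20.3 over 18 pairs). Alternatives were RLE factors, TMM without ribosomal, immunoglobulin, T cell receptor and mitochondrial genes, no filter, a count minimum of 50, only the groups compared, DESeq2 1.42.0, a mouse block (limma 3.58.1 voom between strains), each library left out, and a transcript length and GC correction (GENCODE, 95.0% of genes tested with a length). Counting used a B6 reference, and the effect of NZM2410 alleles on alignment was not tested.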

Additional observations from a re-analysis of the deposited data

Results flagged for a closer look

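In groups of 4, a library was picked out where its gap to the nearest other, over the range of the group, exceeded Dixon's 95% critical value, which chance passes in about 1 of 20 groups. Of 62 such groups (31 genes in B6 Tfh and B6 Tn) 2 were picked out. Sdhc in B6 Tfh mouse 4 was at 50.7 normalized CPM, below the other B6 Tfh libraries at 57.5 to 58.9. Pcx in B6 Tfh mouse 2 was at 7.89 normalized CPM, above the others at 4.32 to 4.76. The cause of either was not tested.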

How the results depend on the processing

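Of 76 called results of single genes, 55 kept direction and call in every alternative, and of their 1748 alternative values 1743 kept direction, 98 lost the call and 5 reversed. For Tfh against Tn in TC, Pdhx and Mdh2 lost the call with RLE factors, and Pdhx also with DESeq2. Aco1 and Fh1 lost it there with TMM without ribosomal and receptor genes and without a filter. With only the groups compared it was lost there for Cs, Pdhx and Mdh2. It was then also lost for Sdha in B6 and for Idh2 between strains in Tfh. Dlat between strains in Tn lost it without a filter. With a count minimum of 50 it was lost between strains for Dlat in Tn and Idh2 in Tfh. Uncalled results gained a call in 68 values, 7 of them with the other sign. Uncalled values that changed sign while staying uncalled (99, the largest 0.45 in size) were not listed singly, a choice made after such values were seen. The length and GC correction was added after seeing the data in 2 forms, the centred one after the counts of the first were seen. Not centred, Tfh against Tn gave 1 higher and 28 lower in B6 and 28 called in TC, 0 higher and 28 lower, with medians over all genes of -0.33 and -0.34 and over the 31 genes of -0.52 and -0.48. Of all called genes, 70.4% and 71.2% were then lower, against 47.4% and 49.0% without it. Centred, 5 were higher in B6. TC against B6 gave 1 higher in Tfh and 2 in Tn in both forms. Not centred, reversed log2 values were, in B6, Aco1 -0.101, Fh1 -0.303 and Idh3b -0.17, and in TC, Acly -0.302, Aco1 -0.237, Fh1 -0.261 and Mdh1 -0.246. Centred, they were Idh3g 0.18 and Sdhd 0.195 in B6 and Idh3g 0.068, Mdh2 0.013 and Sdhd 0.157 in TC. Genes higher in TC Tfh than Tn numbered 1 with TMM without ribosomal and receptor genes, 1 without a filter and 5 with only the groups compared. Leaving out 1 library gave 1 to 5 of them (5 without B6 Tfh 1 or 2, 1 without TC Tn 2 or 4) and 10 to 16 lower. It gave 0 to 1 higher in TC Tfh against B6 Tfh (Idh3b without B6 Tfh 2, Pdhx without B6 Tfh 4). For the interaction it gave 0 to 2 called, all higher (2 without B6 Tfh 2), and DESeq2 gave 2 called, 2 of them higher. Without 1 library the log2 ratio of TC against B6 in Tn ran from -0.033 to 0.032 for Idh2 to Idh3a and from -0.057 to 0.019 for Sucla2 to Suclg2. With mouse as a replicate block, Tfh against Tn gave 2 higher and 18 lower in B6, 3 and 16 in TC and 0 for the interaction, and TC against B6 in limma voom gave 0 and 17 in Tfh and 1 and 19 in Tn. The block changed 2 calls, Idh3a between cell types in TC and Idh2 between strains in Tfh, and no other. The causes of these changes were not tested.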
